A study of Mus musculus with 19 samples.

Results

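Liver of re-fed mice given an antisense oligonucleotide (ASO) against Plin5 was compared with liver of re-fed mice given a control ASO. An ASO is a short synthetic nucleic acid that pairs with an RNA and lowers its amount. The comparison covers 10 of the 19 samples of the series, 5 re-fed control ASO and 5 re-fed PLIN5 ASO libraries taken by their labels. It includes all 13293 genes, of 24421 in the count table, that passed a filter on low counts. Both groups ate a purified normal diet, received 2 ASO injections a week for 3 weeks, were fasted overnight and were then given food again for 4 h. The other 9 samples are 4 fasted control ASO and 5 fasted PLIN5 ASO libraries. The labels give neither strain nor age and do not say that replicates are separate animals, so p-values measure the spread between these samples, which may be technical. They name a single oligonucleotide against Plin5, so what lower Plin5 did and what else that oligonucleotide did cannot be told apart.

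Perilipins coat lipid droplets, the stores of triglyceride in a cell. Perilipin 5 is found in tissues that burn much fat, among them liver and heart, sits where droplets touch mitochondria, and takes part in the control of the lipase that frees fatty acids. Feeding after a fast raises insulin, which raises the transcription of genes of fat and cholesterol synthesis and the translation of ribosomal protein mRNAs.

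The re-fed libraries held 24942147 to 66862784 counts, PLIN5 ASO 5 being the deepest. Levels are in CPM (a library's counts scaled to a total of 1000000, after TMM scaling between libraries). Hepatocyte markers summed to 129969 to 156178 CPM in the controls and 152164 to 204738 CPM with PLIN5 ASO. Controls 3 and 5 stood apart from the other controls. Arntl, a core activator of the circadian clock, was at 23.8 and 45.0 CPM in them, against 0.633 to 3.47 CPM in controls 1, 2 and 4 and 1.77 to 4.87 CPM with PLIN5 ASO. Dbp, an output gene of the clock, was at 11.5 and 1.82 CPM in them, against 36.3 to 132 CPM in the other 8 libraries. Pairs of libraries were compared by a chi-square over genes, divided by its degrees of freedom; it was 106 to 139 for either of them with control 1, 2 or 4 and 22.4 to 36.8 for the other control pairs. They stood apart outside the clock too. Genes of the unfolded protein response, a response to misfolded protein, summed to 10145 and 10071 CPM in them and 4887 to 6764 CPM in controls 1, 2 and 4. Results are therefore also given without these libraries, here called clock-shifted, which leaves out fasted PLIN5 ASO 3 and 5 as well. The clock values of those fasted libraries are not reported here. No label gives a sampling time, so the name describes clock gene levels and not a known difference in time.

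In edgeR's quasi-likelihood test, 183 of 13293 genes (1.38%) passed an adjusted p of 0.05: 108 rose (0.812%) and 75 fell (0.564%). An unadjusted p under 0.05 was reached by 2527 genes (19%). Over all genes tested DESeq2 called 2.53% higher and 2.08% lower, and limma on FPKM 1.26% and 0.983%. Counts given for a gene list are to be read beside these shares. Changes were mostly small, with a median log2 fold change of 0.40 among genes that rose and -0.52 among genes that fell, and -0.01 over all genes tested. All 5 PLIN5 ASO values lay above all 5 control values for 330 genes (2.48%) and below them for 231 (1.74%), and 162 of the 183 were among these. All 183 kept their direction in every alternative setting that tested them, but the number that passed moved with the libraries. It was 64 without control 1, 341 without control 4, 62 without control 5, 65 without PLIN5 ASO 1 and 45 without PLIN5 ASO 2. Leaving out the clock-shifted libraries, 45 of 13286 passed (0.339%), 35 of them among the 183. In a fit of the 10 re-fed libraries alone 4 of 12681 passed (0.0315%): Plin5, Ncam2, Nrp2 and Lpp, all lower with PLIN5 ASO.

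Plin5, the targeted gene (chr17:56111601-56117596, minus strand, GRCm38), fell. It held 27.3, 51.8, 45.4, 28.3 and 34.8 CPM in controls 1 to 5 and 9.98, 11.8, 3.91, 5.54 and 7.51 CPM in PLIN5 ASO 1 to 5. The highest treated library, PLIN5 ASO 2, stood below the lowest control. The log2 fold change was -2.28 (SE 0.27, adjusted p = 0.00119). On the per-length scale of the deposited FPKM, Plin5 was at 18.8 ± 5.52 (SD, n = 5) with control ASO and 3.65 ± 1.56 (SD, n = 5) with PLIN5 ASO. Plin2, a main perilipin of hepatocytes, was at 164 ± 27.0 and 147 ± 41.0 FPKM (SD, n = 5 each), with overlapping groups and a log2 fold change of -0.14 (adjusted p = 0.724).

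Of 35 genes of triglyceride synthesis and lipid droplets, Plin5 alone passed and none rose, while DESeq2 called 1 higher and 2 lower. Of these, 27 had a log2 fold change above 0, and the list median was 0.15 (0.04 without the clock-shifted libraries). Leaving out control 2 or control 4 gave 3 calls, and leaving out PLIN5 ASO 4 gave 2. With a trend along transcript length taken out, as described with the ribosomal protein genes, Agpat3, encoding an acyltransferase of phospholipid synthesis, also passed, at 0.29 (adjusted p = 0.0471); it was named after its values were seen. Pnpla2, the gene of the triglyceride lipase that perilipin 5 binds, held 88.5, 85.1, 62.0, 99.7 and 58.3 CPM in controls 1 to 5 and 145, 111, 120.0, 80.2 and 110.0 CPM in PLIN5 ASO 1 to 5. PLIN5 ASO 4 lay within the control range and the other treated libraries above it (log2 fold change 0.52, SE 0.16, adjusted p = 0.0886; 0.31 without the clock-shifted libraries). Abhd5, encoding the activator of that lipase, had a log2 fold change of -0.34 (adjusted p = 0.183), Plin3 0.13 (adjusted p = 0.671) and Plin4 0.98 (adjusted p = 0.393). Abhd5 had -0.05, Plin3 -0.05 and Plin4 0.57 without the clock-shifted libraries. These 4 genes were named after their values were seen.

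**Figure D1:**
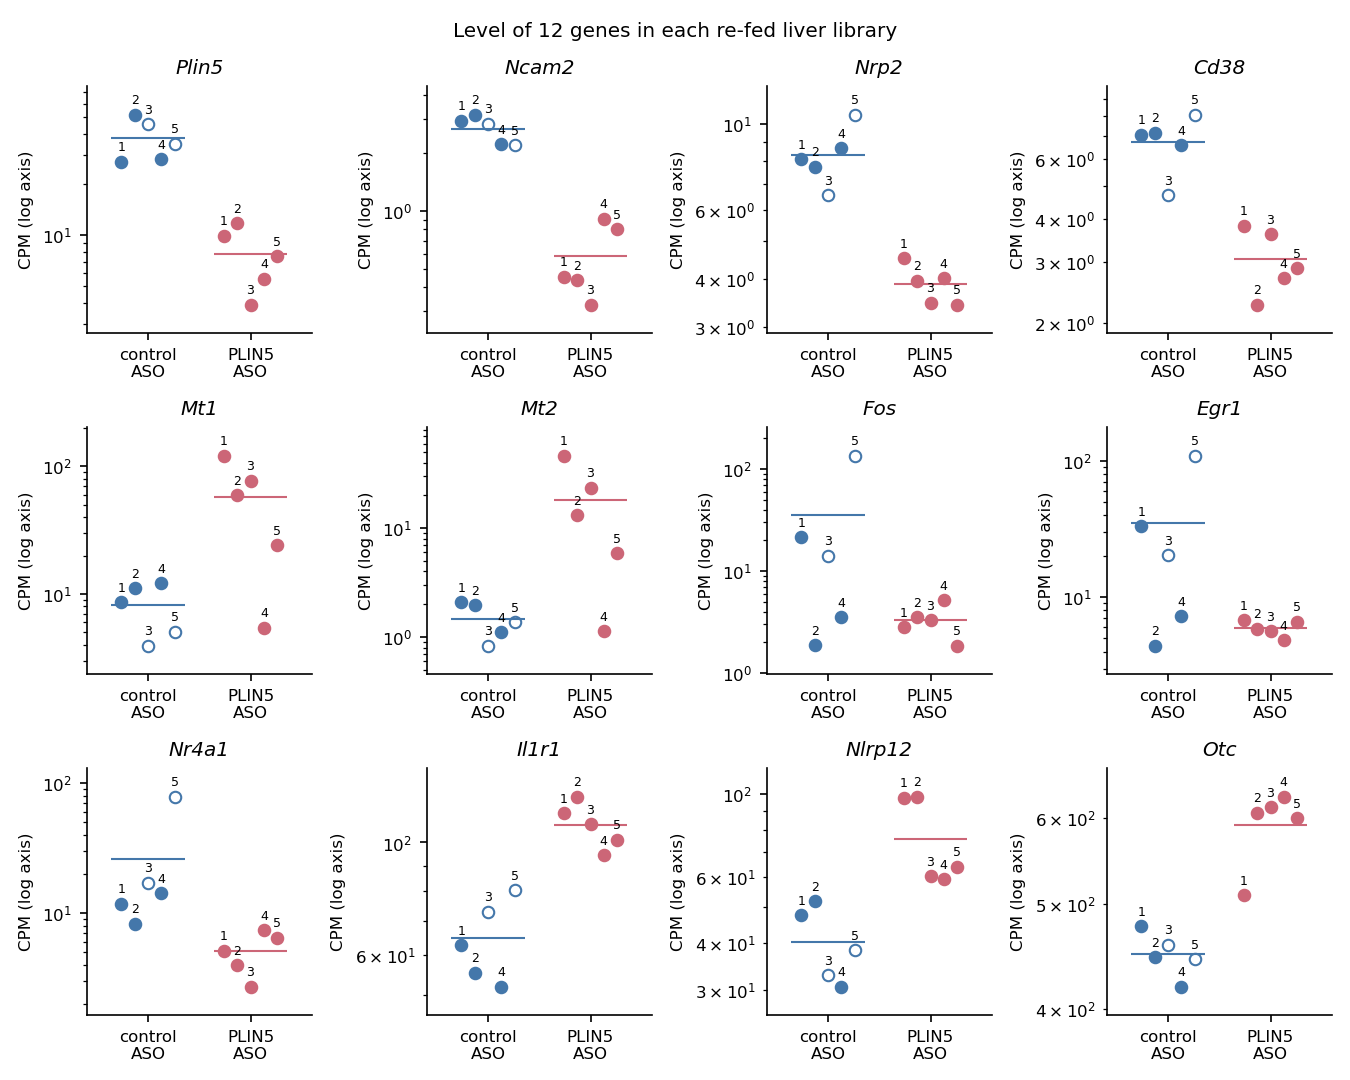
CPM (log axis, with its own range in each panel) of 12 genes in the 5 re-fed control ASO and 5 re-fed PLIN5 ASO libraries, numbered by replicate; lines are group means and open circles the clock-shifted controls 3 and 5. Plin5, Ncam2, Nrp2 and Cd38 have all 5 PLIN5 ASO values below the lowest control, and control 5 is the highest library for Fos, Egr1 and Nr4a1.

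Of the 75 genes that fell, 16 passed in each of the 10 runs that left out 1 re-fed library and had groups that did not overlap: Plin5, Ncam2, Cd38, Nrp2, Rhbg, Plk2, Abca3, Rbm14, Lpp, Arhgdia, C2, Fbxo3, Pigr, Frs2, Ppp2r5a and Ranbp2. Ncam2 (chr16:81200697-81626828, plus strand), encoding a neural cell adhesion molecule, held 2.94, 3.17, 2.84, 2.22 and 2.19 CPM in the controls and 0.455, 0.435, 0.326, 0.911 and 0.80 CPM with PLIN5 ASO. Every treated library was under 1 CPM and every control above 2 CPM (log2 fold change -2.14, SE 0.30, adjusted p = 0.00278). Cd38 (chr5:43868553-43912375, plus strand), encoding an ectoenzyme that consumes NAD, held 7.06, 7.16, 4.71, 6.59 and 8.09 CPM in the controls and 3.83, 2.26, 3.62, 2.70 and 2.88 CPM with PLIN5 ASO. Control 3 and PLIN5 ASO 1 came nearest to each other (log2 fold change -1.13, SE 0.16, adjusted p = 0.00278).

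Nrp2 (chr1:62703285-62818695, plus strand) encodes neuropilin 2, a co-receptor for semaphorins and vascular endothelial growth factors. It held 8.10, 7.75, 6.54, 8.64 and 10.6 CPM in the controls and 4.52, 3.95, 3.47, 4.01 and 3.43 CPM with PLIN5 ASO. The groups did not overlap (log2 fold change -1.11, SE 0.15, adjusted p = 0.00278). In bulk liver RNA, fewer cells of a type and less RNA per cell cannot be told apart. Plk2, a stress-induced kinase gene and p53 target, held 8.48 to 12.8 CPM in the controls and 4.31 to 6.22 CPM with PLIN5 ASO (log2 fold change -1.0, SE 0.17, adjusted p = 0.0121). Rhbg, encoding an ammonium transporter of pericentral hepatocytes, held 11.5, 9.81, 23.6, 10.9 and 16.5 CPM in the controls and 8.04, 8.26, 6.69, 6.23 and 6.11 CPM with PLIN5 ASO. The clock-shifted controls were its highest libraries (log2 fold change -1.04, SE 0.18, adjusted p = 0.0126), and without them the value was -0.61 (adjusted p = 0.0436).

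The smaller falls of this set had varied functions. Abca3, encoding a lipid transporter, had a log2 fold change of -0.70 (adjusted p = 0.0164), and Rbm14, encoding an RNA-binding coactivator, -0.70 (adjusted p = 0.00692). C2, a complement component, had -0.44 (adjusted p = 0.0166). Pigr encodes the receptor that carries polymeric immunoglobulin into bile. It held 1385, 1232, 1394, 1282 and 1369.7 CPM in the controls and 956, 953, 1099, 966 and 1012 CPM with PLIN5 ASO. All treated libraries were lower, and close to each other (log2 fold change -0.42, SE 0.07, adjusted p = 0.0117). Lpp, encoding a focal adhesion protein, had -0.59 (adjusted p = 0.0126), Arhgdia -0.52 (adjusted p = 0.0126), and Fbxo3, encoding a ubiquitin ligase subunit, -0.43 (adjusted p = 0.0103). Frs2, an adaptor of growth factor receptors, had -0.41, Ppp2r5a, a phosphatase subunit, -0.33, and Ranbp2, a nuclear pore protein, -0.32. Without the clock-shifted libraries Arhgdia, C2, Frs2 and Ppp2r5a did not pass (adjusted p 0.0609 to 0.0935). With the length trend taken out, Abca3, Lpp, Frs2 and Ranbp2 did not pass (adjusted p 0.0597 to 0.263).

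Larger falls that did not pass every such run included Slc13a2, encoding a citrate and succinate carrier of the plasma membrane. It held 1.54, 1.77, 3.84, 1.65 and 3.43 CPM in the controls and 0.0759, 0.608, 0.362, 0.728 and 0.669 CPM with PLIN5 ASO. The clock-shifted controls were highest (log2 fold change -2.28, SE 0.46, adjusted p = 0.0211), without them the value was -1.71 (adjusted p = 0.118), and the gene did not pass without control 5 or PLIN5 ASO 2. Tspyl4, encoding a member of the nucleosome assembly protein family, had -1.46 (adjusted p = 0.0166) and did not pass without PLIN5 ASO 2 or without the clock-shifted libraries (adjusted p = 0.0677). Rnf125, a ubiquitin ligase gene, was at 83.6 CPM in control 5 against 18.4 to 37.0 CPM in the other controls (log2 fold change -1.54, SE 0.35, adjusted p = 0.0364). It did not pass without control 1, 3 or 5 or PLIN5 ASO 1, 2, 3 or 4. Map3k13, a kinase gene of the JNK pathway, was at 29.3 CPM in control 5 against 9.70 to 18.0 CPM in the other controls (log2 fold change -1.45, SE 0.31, adjusted p = 0.0264). It did not pass without control 5 or PLIN5 ASO 1, 2 or 3. In 12 of the 183 genes the log2 fold change shrank by over 1.5 times without the clock-shifted libraries: Fos, Egr1, Nr4a1, Rnf125 (to -0.73), Map3k13 (-0.87), Chic1 (-0.88), Rhbg, Mfhas1 (to -0.35), Prkar2a (-0.25), Zhx2 (-0.26), Iqsec1 (-0.20) and AI413582 (0.57). These were singled out after their values were seen.

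Of the 108 genes that rose, 18 passed in each of the 10 runs. Of these, 16 had groups that did not overlap, Npm3, Rpl15, Smim19, Rpl31, Rps25, Rps24, Eif4ebp1, Cenpv, Eif3k, Cbr4, Rpl35a, Rpl35, Rps18, Cpq, Otc and Rab4b, and the other two were Mt1 and Mt2. Otc, encoding the urea cycle enzyme ornithine transcarbamylase, held 477, 447, 459, 419.8 and 445 CPM in the controls and 509, 606, 613, 628 and 600.0 CPM with PLIN5 ASO. PLIN5 ASO 1 was the lowest treated library and still above every control (log2 fold change 0.40, SE 0.07, adjusted p = 0.0126). Cbr4, encoding a reductase of mitochondrial fatty acid synthesis, held 17.3 to 21.4 CPM in the controls and 26.1 to 28.1 CPM with PLIN5 ASO (log2 fold change 0.44, SE 0.07, adjusted p = 0.00561). Eif4ebp1, encoding a translation repressor that mTOR inactivates, held 47.0, 51.2, 44.4, 54.4 and 46.5 CPM in the controls and 77.9, 70.9, 70.3, 56.7 and 60.4 CPM with PLIN5 ASO. PLIN5 ASO 4 came nearest to the controls (log2 fold change 0.47, SE 0.08, adjusted p = 0.0126). Npm3, a nucleolar chaperone gene, had 0.80 (adjusted p = 0.0166), Eif3k, encoding a translation initiation factor, 0.44 (adjusted p = 0.0164), Rab4b, encoding a GTPase of endosome recycling, 0.37 (adjusted p = 0.0126), and Cpq, encoding a carboxypeptidase, 0.40 (adjusted p = 0.0126). Without the clock-shifted libraries Rpl15, Rpl31, Eif4ebp1, Cenpv, Eif3k, Rpl35a and Otc did not pass (adjusted p 0.0538 to 0.0948). With the length trend taken out, Npm3, Cenpv, Eif3k, Rpl35a, Rpl35, Rps18 and Rab4b did not pass (adjusted p 0.0808 to 0.175).

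**Figure D2:**
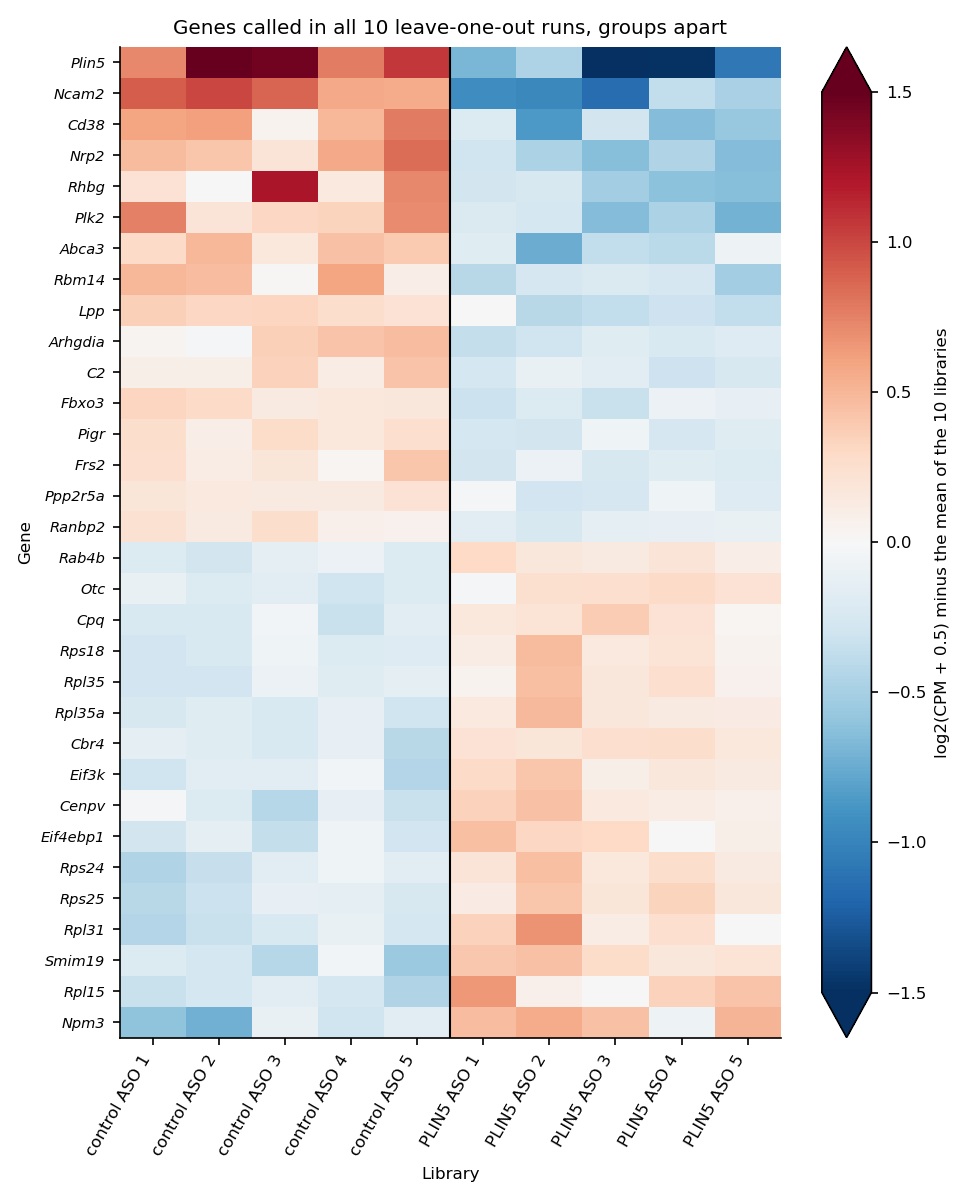
Log2(CPM + 0.5) minus the mean of the 10 re-fed libraries for the 32 genes that passed in all 10 leave-one-out runs and whose groups did not overlap; columns are libraries, and the colour saturates at 1.5 either side of 0. Plin5 and Ncam2 show the deepest contrast between the groups.

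Metallothioneins are small cysteine-rich proteins that bind zinc and copper. Metals raise their transcription through the factor MTF1, and glucocorticoids and inflammation raise it too. Mt1 (chr8:94179082-94180327, plus strand) and Mt2 (chr8:94172664-94173568, plus strand) lie side by side and had the largest log2 rises of the genes named here, so the 250 bases upstream of each RefSeq start are shown (RefSeq, GRCm38.p6, plus strand). Capitals mark matches to the core of the metal response element, searched as TGCACNC or TGCGCNC on both strands.
Mt1: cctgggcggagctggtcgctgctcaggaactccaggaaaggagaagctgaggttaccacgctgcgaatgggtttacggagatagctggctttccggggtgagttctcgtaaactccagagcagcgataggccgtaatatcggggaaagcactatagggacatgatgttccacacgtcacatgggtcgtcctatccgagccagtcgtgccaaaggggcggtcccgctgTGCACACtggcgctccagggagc
Mt2: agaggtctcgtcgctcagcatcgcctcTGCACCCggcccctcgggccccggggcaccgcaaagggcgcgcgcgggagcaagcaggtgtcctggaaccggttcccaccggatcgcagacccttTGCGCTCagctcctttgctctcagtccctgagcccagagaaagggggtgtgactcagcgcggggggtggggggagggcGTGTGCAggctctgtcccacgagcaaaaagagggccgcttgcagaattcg
The Mt1 window (chr8:94178839-94179088) holds 1 match and the Mt2 window (chr8:94172368-94172617) 3. Of 32851 such RefSeq windows 21.4% hold at least 1 match and 1.26% at least 3. A match describes letters, not a bound site. The windows depend on the annotated start and sequence outside them was not searched, so the counts do not give the number of elements in either promoter.

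Mt1 held 8.61, 11.1, 3.94, 12.1 and 5.04 CPM in the controls and 122, 59.6, 77.4, 5.43 and 24.2 CPM with PLIN5 ASO. PLIN5 ASO 1, 2, 3 and 5 were above every control, by very different amounts, and PLIN5 ASO 4 lay within the control range (log2 fold change 2.82, SE 0.54, adjusted p = 0.0169). Mt2 held 2.08, 1.96, 0.834, 1.11 and 1.37 CPM in the controls and 46.6, 13.1, 23.5, 1.13 and 5.89 CPM with PLIN5 ASO. The treated libraries stood in the same order as for Mt1 (log2 fold change 3.62, SE 0.64, adjusted p = 0.0126). Without the clock-shifted libraries the values were 2.44 for Mt1 and 3.39 for Mt2, with adjusted p of 0.0922 and 0.0865. The genes are paralogs, and the counting rule for reads that fit both is not given, so their split is uncertain.

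Of 22 genes of metallothioneins and zinc transport, Mt1 and Mt2 rose, none fell, and the median was -0.04. Mtf1, encoding the metal-sensing factor, held 18.0 to 22.0 CPM in the controls and 16.1 to 21.8 CPM with PLIN5 ASO, a log2 fold change of -0.13 (adjusted p = 0.435). Slc30a1, a zinc exporter gene that MTF1 also regulates, named after its values were seen, had -0.05 (adjusted p = 0.836). Slc30a1 had 0.05 without the clock-shifted libraries, and with the length trend taken out Mtf1 had 0.01 and Slc30a1 0.03.

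Immediate early genes are transcribed within minutes of a stimulus, and many encode transcription factors. Of 29 tested, Fos, Egr1 and Nr4a1 fell and none rose, 12 reached an unadjusted p under 0.05, and the list median was -0.28. DESeq2 called 6 lower and 1 higher, and limma on FPKM none. Over all genes 0.564% fell, 19% reached that unadjusted p, and DESeq2 called 2.08% lower and 2.53% higher. Fos held 21.4, 1.88, 14.2, 3.55 and 136 CPM in the controls and 2.81, 3.52, 3.29, 5.21 and 1.86 CPM with PLIN5 ASO. Control 5 was far above all others, and controls 2 and 4 lay among the treated libraries (log2 fold change -3.43, SE 0.83, adjusted p = 0.0442). Egr1 held 33.0, 4.43, 20.4, 7.28 and 109 CPM in the controls and 6.75, 5.87, 5.61, 4.84 and 6.62 CPM with PLIN5 ASO. Its controls stood in the same order as for Fos, with control 2 below every treated library (log2 fold change -2.55, SE 0.61, adjusted p = 0.0412). For both genes the treated libraries were close to each other and the spread was in the controls.

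Nr4a1, an orphan nuclear receptor gene, held 11.8, 8.26, 17.2, 14.3 and 79.1 CPM in the controls and 5.12, 3.95, 2.71, 7.36 and 6.45 CPM with PLIN5 ASO. The groups did not overlap, and control 5 was again highest (log2 fold change -2.34, SE 0.53, adjusted p = 0.0348). Without the clock-shifted libraries Fos had -1.44 (adjusted p = 0.247), Egr1 -1.32 (adjusted p = 0.199) and Nr4a1 -1.15 (adjusted p = 0.122). With the length trend taken out none of the 3 passed (adjusted p 0.0659 to 0.0808). Fos did not pass without control 1 or 5 or PLIN5 ASO 1, 2, 3, 4 or 5, Egr1 not without control 1 or 5 or PLIN5 ASO 1, 2, 3, 4 or 5, and Nr4a1 not without control 5 or PLIN5 ASO 1, 2 or 3. Other members, named after their values were seen, did not pass: Fosb had -3.65 (adjusted p = 0.0705) and -1.76 without the clock-shifted libraries, Btg2 -0.68 (adjusted p = 0.0795), Jun -0.69 (adjusted p = 0.162), Junb -0.73 (adjusted p = 0.248) and Klf10 0.68 (adjusted p = 0.0776). RefSeq promoter windows of 250 bases matched 24 of the list's genes, with 30 windows. The CArG box was found in 7 windows, of Dusp5, Egr2, Srf and Zfp36. The cAMP response element TGACGTCA was found in 3, of Btg2, Dusp1 and Maff. Of all windows, 1.47% and 1.55% held these motifs on either strand. Fos and Nr4a1, with 1 window each, held neither motif there, and Egr1 is not among the genes with a match. Sequence outside the windows was not searched.

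Cytosolic ribosomal proteins build the large (Rpl) and small (Rps) subunits of the ribosome. Of 77 genes tested 33 rose, where 0.812% of all genes did, and none fell; 65 reached an unadjusted p under 0.05. DESeq2 called 42 higher and none lower, and limma on FPKM 31 higher. The log2 fold change was above 0 in 74, with a median of 0.33. Their summed level was 7645 to 9003 CPM in the controls and 9716 to 12037 CPM with PLIN5 ASO. Rps24 held 177, 191, 217, 231 and 215 CPM in the controls and 278, 331, 271, 291 and 266 CPM with PLIN5 ASO. PLIN5 ASO 2 was highest (log2 fold change 0.48, SE 0.08, adjusted p = 0.0126). Rps25 held 94.8 to 117 CPM in the controls and 137 to 169.6 CPM with PLIN5 ASO (log2 fold change 0.49, SE 0.08, adjusted p = 0.0126). All treated libraries lay above all controls for 43 of the genes, as for 2.48% of all genes.

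Without the clock-shifted libraries the list median was 0.36, and 7 members passed: Rpl28, Rpl32, Rpl35, Rps18, Rps24, Rps25 and Rps28. Leaving out 1 library gave medians of 0.25 to 0.35, but 7 members passed without control 1, 17 without control 2, 13 without control 5, 13 without PLIN5 ASO 1 and 9 without PLIN5 ASO 2. In fasted liver the median was 0.08. These genes have many processed pseudogenes, so values of single genes are uncertain. Mitochondrial ribosomal proteins (76 genes) and oxidative phosphorylation (76 genes) had medians of 0.17 and 0.17. No member of either passed in edgeR or in limma on FPKM, 35 and 31 reached an unadjusted p under 0.05 (19% of all genes), and DESeq2 called 6 and 11 higher (2.53% of all genes). Of 34 proteasome genes Psma7 (0.23) and Psmb6 (0.27) rose (0.812% of all genes did), and 18 reached an unadjusted p under 0.05. DESeq2 called 5 of them higher and limma on FPKM 2. Of 35 ribosome biogenesis genes Npm3 rose and 6 reached that unadjusted p, with 1 higher in DESeq2 and 1 in limma on FPKM. Psma7 passed in 3 and Psmb6 in 4 of the 10 leave-one-out runs, and neither passed without the clock-shifted libraries (adjusted p = 0.139 and 0.124).

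Ribosomal protein transcripts are short, and the fold change went with transcript length over all genes. By the longest annotated transcript, the median log2 fold change was 0.21 for 97 genes of up to 500 nt and 0.20 for 679 genes of 501 to 1000 nt. It was 0.09 at 1001 to 2000 nt, 0.03 at 2001 to 3000 nt, -0.04 at 3001 to 5000 nt, -0.11 at 5001 to 8000 nt and -0.18 for 673 genes over 8000 nt. Of the 108 genes that rose, 42 had transcripts of up to 1000 nt, and of the 75 that fell, 45 had transcripts over 5000 nt. The share that rose was 7.22% up to 500 nt and 5.15% at 501 to 1000 nt, against 0.812% of all genes. The share that fell was 1.20% at 5001 to 8000 nt and 3.12% over 8000 nt, against 0.564% of all genes. In fasted liver the class medians lay between -0.01 and 0.05.

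Each library's long-minus-short value, the log2 deviation of genes over 5000 nt minus that of genes under 1000 nt, was 0.23, 0.11, 0.09, 0.05 and 0.18 in controls 1 to 5 and -0.11, -0.41, -0.06, -0.08 and -0.01 in PLIN5 ASO 1 to 5. The groups did not overlap, and PLIN5 ASO 2 stood far below the others. The difference of the means was -0.27 (two-sided exact permutation test over the 10 libraries, p = 0.00794, the smallest that 252 splits allow) and -0.20 without PLIN5 ASO 2. With no filter on low counts it was -0.16. The trend was known from earlier results of these data when the test was chosen, so this p-value is not independent evidence for it. Within length classes, ribosomal protein genes had a median of 0.33 against 0.19 for other genes at 501 to 1000 nt, and 0.28 against 0.09 at 1001 to 2000 nt. With each library's trend along length taken out, 44 genes passed (0.331%), 26 higher and 18 lower, the ribosomal protein median was 0.16, and Rpl15, Rpl31, Rps24 and Rps25 rose. The medians then were 0.05 for mitochondrial ribosomal proteins, -0.01 for oxidative phosphorylation and 0.02 for the proteasome. Psma7 then had 0.10 (adjusted p = 0.434) and Psmb6 0.08 (adjusted p = 0.481). The part of library preparation or RNA quality in the trend was not tested.

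**Figure D3:**
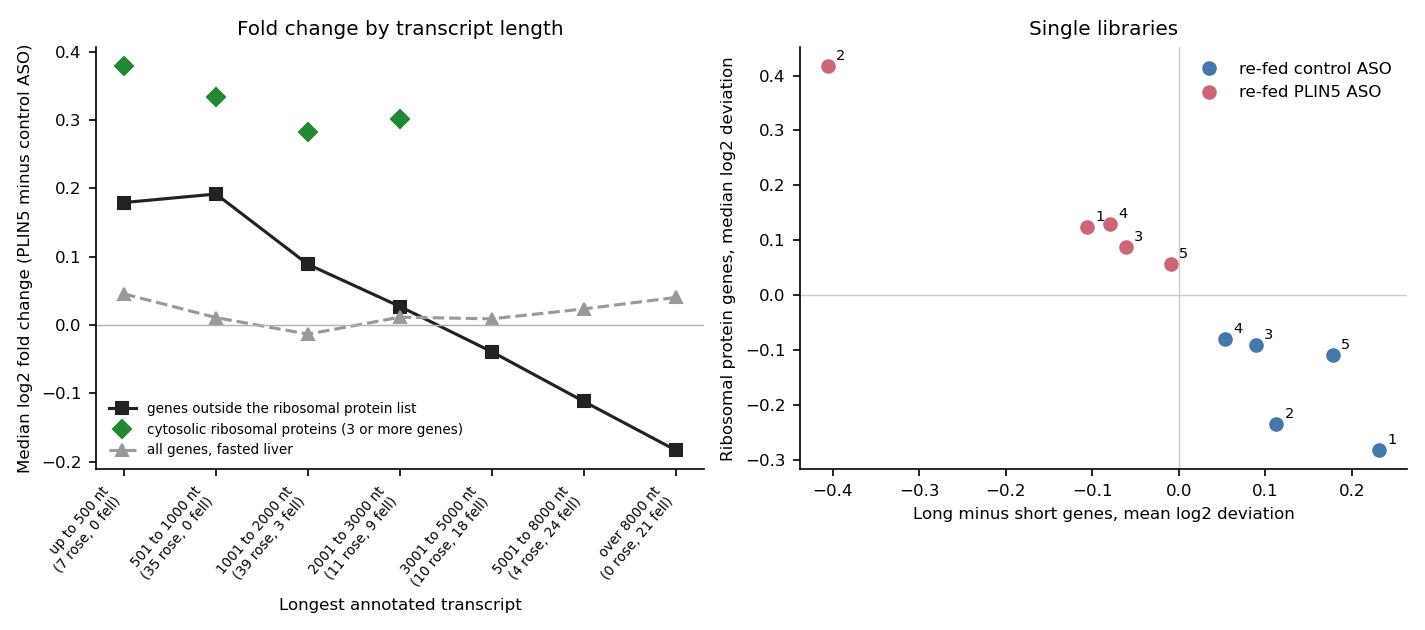
Left, median log2 fold change by class of longest annotated transcript for genes other than ribosomal protein genes, for ribosomal protein genes, and for all genes in fasted liver. Right, for each re-fed library, the long-minus-short log2 value and the median log2 deviation of ribosomal protein genes; every control has a positive long-minus-short value and a negative ribosomal deviation, and every PLIN5 ASO library the opposite.

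Genes of fatty acid synthesis, which insulin raises on feeding, had a median log2 fold change of -0.30 (-0.38 without the clock-shifted libraries). Of 26 tested, Acsl3 fell and none rose, 9 reached an unadjusted p under 0.05, and DESeq2 and limma on FPKM each called 3 lower. Over all genes 0.564% fell, 19% reached that unadjusted p, and DESeq2 and limma on FPKM called 2.08% and 0.983% lower. Acsl3, encoding an acyl-CoA synthetase of lipid droplets, held 29.8, 21.5, 29.2, 31.7 and 35.5 CPM in the controls and 12.1, 17.5, 14.8, 23.0 and 14.5 CPM with PLIN5 ASO. PLIN5 ASO 4 lay above control 2 (log2 fold change -0.85, SE 0.19, adjusted p = 0.0349), and the gene did not pass without control 1, 3 or 5 or PLIN5 ASO 1, 2, 3 or 5, without the clock-shifted libraries (adjusted p = 0.137) or with the length trend taken out (adjusted p = 0.0808). Fasn, encoding fatty acid synthase, held 707 to 1444 CPM in the controls and 378 to 1032 CPM with PLIN5 ASO, a log2 fold change of -0.51 (adjusted p = 0.231). Scd1, encoding stearoyl-CoA desaturase, had -0.61 (adjusted p = 0.489), and Srebf1, encoding the pathway's activator, -0.17 (adjusted p = 0.783); without the clock-shifted libraries Srebf1 had -0.43.

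Of 25 genes of cholesterol synthesis and uptake, none passed in edgeR's test or in limma on FPKM, 6 reached an unadjusted p under 0.05, and DESeq2 called 3 lower. The median was -0.35 (-0.21 without the clock-shifted libraries), and 5 members passed without control 2 and 1 without PLIN5 ASO 4. Insig1, encoding a protein that holds SREBP activators in the endoplasmic reticulum, held 234, 117, 254, 179 and 265 CPM in the controls and 118, 93.0, 106, 169.7 and 119 CPM with PLIN5 ASO. Control 2 lay within the treated range and the other controls above it (log2 fold change -0.79, SE 0.23, adjusted p = 0.0759). Of 36 genes of fatty acid oxidation and ketogenesis, none passed in edgeR's test or in limma on FPKM, 9 reached an unadjusted p under 0.05, DESeq2 called 1 higher and 1 lower, and the median was 0.18 (0.04 without the clock-shifted libraries). Pdk4, encoding a kinase that restrains glucose oxidation, held 2.33 to 12.2 CPM in the controls and 0.724 to 2.26 CPM with PLIN5 ASO, without overlap and without passing (log2 fold change -1.98, SE 0.57, adjusted p = 0.0795). Controls 5 and 3 were its highest libraries, and without the clock-shifted libraries the value was -1.07 (adjusted p = 0.284).

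The other metabolic lists held few calls in edgeR's test. Of 29 glycolysis genes none passed in edgeR's test (4 at an unadjusted p under 0.05, 1 higher in DESeq2). Of 28 genes of gluconeogenesis and insulin action none passed in edgeR's test (5 at an unadjusted p under 0.05, 1 higher and 1 lower in DESeq2). Irs2, an adaptor of the insulin receptor, held 2.37 to 17.9 CPM in the controls and 1.26 to 4.16 CPM with PLIN5 ASO (log2 fold change -1.54, SE 0.42, adjusted p = 0.0657). Of 30 genes of amino acid catabolism and the urea cycle, Otc rose in edgeR's test (0.812% of all genes did), and 5 reached an unadjusted p under 0.05. DESeq2 called 4 of them higher (2.53% of all genes), and limma on FPKM 2 (1.26% of all genes). Of 22 bile acid genes Abcc2, encoding a canalicular exporter of conjugates, fell. It held 513, 387, 395, 449 and 393 CPM in the controls and 342, 299, 287, 343 and 324 CPM with PLIN5 ASO. The groups did not overlap (log2 fold change -0.42, SE 0.09, adjusted p = 0.024), and with the length trend taken out the value was -0.27 (adjusted p = 0.18). Abcc2 did not pass without control 1 or PLIN5 ASO 2. Of 24 genes of xenobiotic metabolism none passed in edgeR's test (7 at an unadjusted p under 0.05, 2 lower in DESeq2, 1 lower in limma on FPKM). Cyp1a2, encoding a drug-oxidising cytochrome, held 655 to 818 CPM in the controls and 453 to 623 CPM with PLIN5 ASO (log2 fold change -0.38, SE 0.11, adjusted p = 0.0796). Cyp2b9 passed without the clock-shifted libraries at a log2 fold change of -4.21 (adjusted p = 0.0436), and had -3.45 (adjusted p = 0.136) with them. It held 6.17, 16.8 and 3.2 CPM in controls 1, 2 and 4 and 0.152 to 1.56 CPM with PLIN5 ASO. The left-out controls 3 and 5 lay below every PLIN5 ASO library. The call was thus reached only by leaving out the controls that went against the fall.

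Autophagy digests a cell's own components in lysosomes. Of 41 autophagy genes none passed in edgeR's test or in limma on FPKM, 5 reached an unadjusted p under 0.05, DESeq2 called 1 higher, and the median was -0.01. Map1lc3b, encoding the autophagosome protein LC3B, held 80.3, 76.6, 67.7, 90.8 and 67.7 CPM in the controls and 116, 99.8, 95.2, 80.7 and 98.4 CPM with PLIN5 ASO. PLIN5 ASO 4 lay within the control range and the others above it (log2 fold change 0.36, SE 0.09, adjusted p = 0.0554). Sqstm1, encoding the cargo receptor p62, had -0.06 (adjusted p = 0.824), and Ulk1, encoding the initiating kinase, 0.07 (adjusted p = 0.666). Sirt1, a deacetylase gene, had -0.20 (adjusted p = 0.255), and Ppargc1a, encoding a coactivator of mitochondrial genes, 0.04 (adjusted p = 0.944). The values of Sqstm1, Ulk1 and Ppargc1a were 0.04, -0.02 and -0.04 without the clock-shifted libraries. Of 38 lysosome genes none passed in edgeR's test or in limma on FPKM, and 10 reached an unadjusted p under 0.05 (19% of all genes). DESeq2 called 2 higher and 2 lower (2.53% and 2.08% of all genes).

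Of 29 genes of inflammatory signalling Il1r1 and Nlrp12 rose (0.812% of all genes did), none fell, and the median was -0.07. Il1r1, encoding the interleukin 1 receptor, held 62.6, 55.2, 73.0, 51.9 and 80.4 CPM in the controls and 114, 123, 109, 94.3 and 101 CPM with PLIN5 ASO. All treated libraries lay above all controls, of which the clock-shifted ones were highest (log2 fold change 0.75, SE 0.17, adjusted p = 0.0324; 0.94 without them). It did not pass without control 1 or 2 or PLIN5 ASO 1 or 2. Nlrp12, encoding a nucleotide-binding leucine-rich repeat protein, held 47.5, 51.7, 32.8, 30.7 and 38.3 CPM in the controls and 97.5, 98.3, 60.4, 59.1 and 64.0 CPM with PLIN5 ASO. PLIN5 ASO 1 and 2 were highest (log2 fold change 0.92, SE 0.20, adjusted p = 0.03). Its adjusted p was 0.11 without the clock-shifted libraries, and it did not pass without control 1, 3 or 5 or PLIN5 ASO 1 or 2.

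Of 28 acute phase genes none passed in edgeR's test, in DESeq2 or in limma on FPKM, and 3 reached an unadjusted p under 0.05. Saa1, a serum amyloid gene, held 86.1, 74.6, 469.8, 66.7 and 391 CPM in the controls and 111, 92.9, 102, 71.8 and 277 CPM with PLIN5 ASO. It was highest in controls 3 and 5 and in PLIN5 ASO 5 (log2 fold change -0.73, SE 0.87, adjusted p = 0.689), and without the clock-shifted libraries the value was 0.79 (adjusted p = 0.733). Of 31 interferon response genes none passed in any of the 3 tools, and 6 reached an unadjusted p under 0.05. The unfolded protein response adjusts protein folding in the endoplasmic reticulum. Of its 23 genes none passed in edgeR's test or in limma on FPKM, and 8 reached an unadjusted p under 0.05 (19% of all genes). DESeq2 called 1 lower (2.08% of all genes), and 1 was above 0. Its median was -0.34, and 0.06 without the clock-shifted libraries. The integrated stress response (20 genes), NRF2 targets (20 genes) and clock genes (24 genes) held no call in edgeR or in limma on FPKM, with 2, 3 and 5 at an unadjusted p under 0.05, and DESeq2 called 1 clock gene lower. Of 20 p53 targets and cell cycle genes Plk2 fell.

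**Figure D4:**
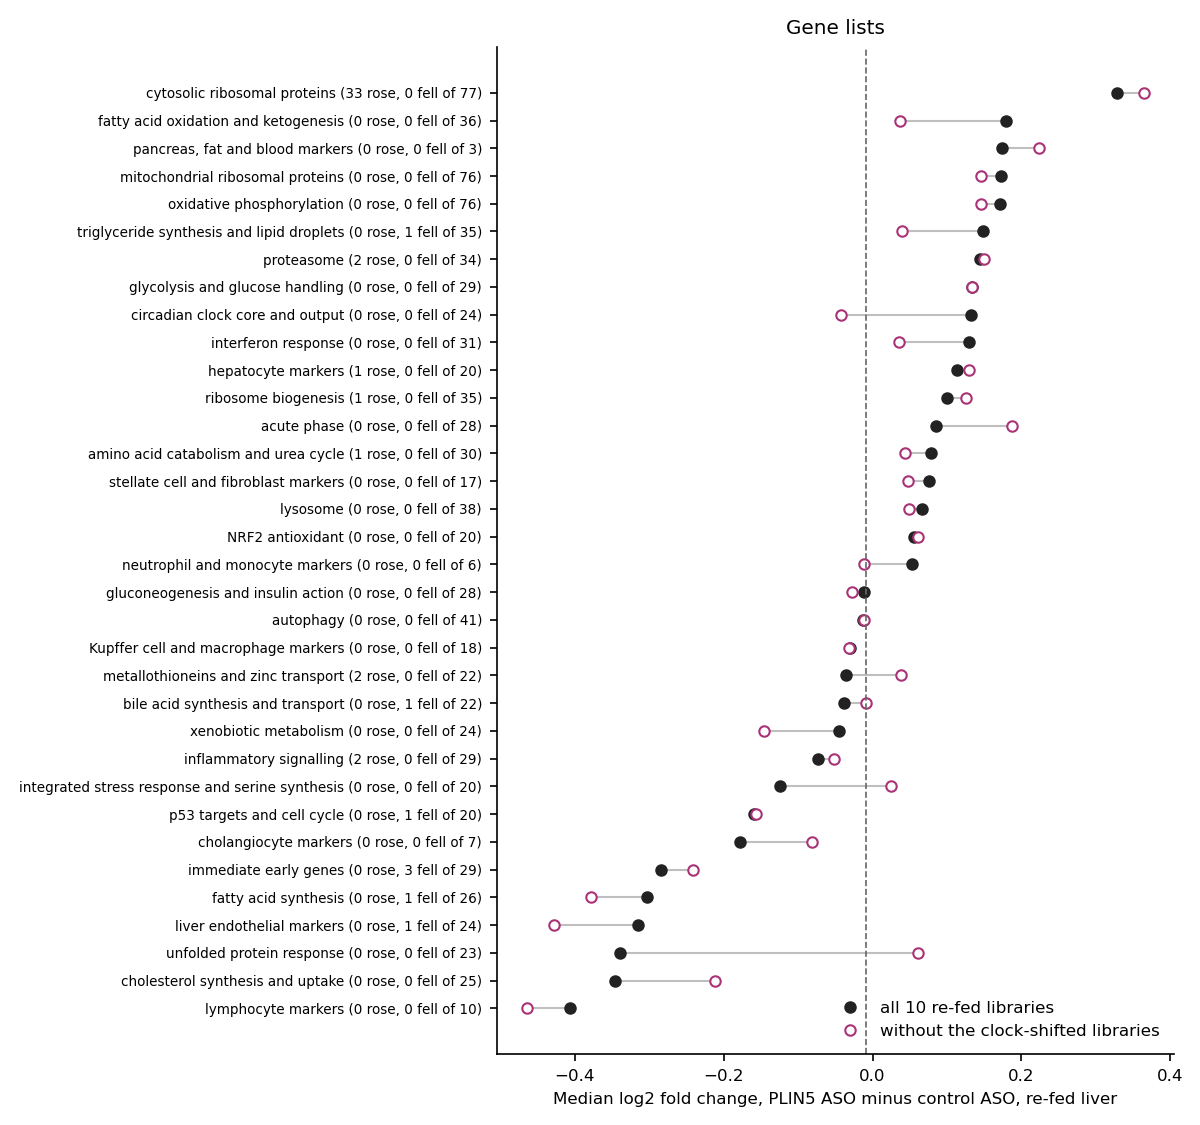
Median log2 fold change (PLIN5 ASO minus control ASO, re-fed liver) of 34 gene lists, filled with all 10 libraries and open without the clock-shifted ones; the dashed line is the median of all genes tested, -0.01. The unfolded protein response moves from -0.34 to 0.06, and cytosolic ribosomal proteins from 0.33 to 0.36.

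Of 24 markers of liver endothelium Kdr fell and none rose, 11 reached an unadjusted p under 0.05, and DESeq2 called 5 lower. Of all genes 0.564% fell, 19% reached that unadjusted p and 2.08% were lower in DESeq2. The log2 fold change was above 0 in 3 of them, and the median was -0.31 (-0.43 without the clock-shifted libraries, -0.29 in fasted liver). Their summed level was 297 to 513 CPM in the controls and 259 to 429 CPM with PLIN5 ASO. Kdr (chr5:75932827-75978458, minus strand), encoding the vascular endothelial growth factor receptor 2, held 20.9, 16.7, 9.18, 14.7 and 16.6 CPM in the controls and 10.5, 3.56, 9.08, 5.90 and 8.22 CPM with PLIN5 ASO. Control 3 lay within the treated range (log2 fold change -1.06, SE 0.24, adjusted p = 0.0348). Kdr did not pass without control 1, 2 or 5 or PLIN5 ASO 2 or 4, and 4 markers passed without control 3. The median longest transcript of the markers was 3974 nt, against 3053 nt over all genes; with the length trend taken out the list median was -0.29 and no marker passed (Kdr adjusted p = 0.0808). The part of the level of these markers in the fall of Nrp2 was not tested.

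Markers of other cell types gave no call in edgeR, DESeq2 or limma on FPKM. This held for 18 markers of Kupffer cells and macrophages, 17 of stellate cells and fibroblasts, 7 of cholangiocytes, 6 of neutrophils and monocytes, 10 of lymphocytes, and 3 of pancreas, fat and blood, with 1, 3, 1, 1, 2 and 1 at an unadjusted p under 0.05. Their median log2 fold changes, in that order, were -0.03, 0.08, -0.18, 0.05, -0.41 and 0.17. The lymphocyte median was thus below the endothelial one of -0.31. It was -0.46 without the clock-shifted libraries and -0.52 with the length trend taken out. The macrophage markers summed to 251 to 419 CPM in the controls and 264 to 452 CPM with PLIN5 ASO, and the lymphocyte markers to 9.69 to 16.7 CPM in the controls and 8.43 to 10.6 CPM with PLIN5 ASO. Of the pancreas, fat and blood markers, Prss2, Amy2a5, Ins2, Lep, Hba-a1, Hba-a2, Hbb-bs and Hbb-bt had 0 counts in every re-fed library. Alas2, of the same list, averaged 176 CPM in the controls and 179 CPM with PLIN5 ASO. Cela1 averaged 29.9 and 33.6 CPM, and Fabp4 5.61 and 7.51 CPM. The part of the annotation or the counting in the 0 counts was not tested, so they do not show that blood was absent. Of 20 hepatocyte markers 16 were above 0 (median 0.11), and 7 reached an unadjusted p under 0.05 (19% of all genes). DESeq2 called 4 of them higher (2.53% of all genes), limma on FPKM 2 (1.26% of all genes) and edgeR 1 (0.812% of all genes). The 1 that rose in edgeR's test was Ttr, encoding the thyroxine carrier transthyretin. It held 6973 to 7969.7 CPM in the controls and 9060.1 to 11616 CPM with PLIN5 ASO, without overlap (log2 fold change 0.39, SE 0.09, adjusted p = 0.0422). It did not pass without control 1, 3 or 5 or PLIN5 ASO 1, 2 or 3, without the clock-shifted libraries (adjusted p = 0.144) or with the length trend taken out, where it had 0.25 (adjusted p = 0.161).

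The effect was set beside that in fasted liver by an interaction term, which passed for 3 of 13293 genes (0.0226%), each at an adjusted p of 0.0482. Of these, 2 are described, and they were named after their values were seen. Rnf144b, a ubiquitin ligase gene, held 27.3 to 61.2 CPM in re-fed controls and 33.3 to 38.8 CPM with PLIN5 ASO. In fasted liver it held 25.4 to 26.6 CPM and 42.7 to 52.1 CPM, without overlap. Its log2 fold changes were -0.25 in re-fed and 0.94 in fasted liver, a difference of -1.19 (SE 0.20). Control 5 was its highest re-fed library, and without the clock-shifted libraries the re-fed value was 0.02 and the difference -0.90. Dpm3, encoding a subunit of dolichol-phosphate mannose synthase, had 0.30 and -0.29, a difference of 0.60 (SE 0.10), and with the length trend taken out its re-fed value was 0.11. Fasted controls 3 and 4 were close to each other, with a chi-square over genes of 3.27 times its degrees of freedom. Counted as 1 sample, a choice made after seeing the data, they left no gene past the threshold (adjusted p = 0.167 for Rnf144b and 0.117 for Dpm3). Without the clock-shifted libraries neither Rnf144b (adjusted p = 0.123) nor Dpm3 (adjusted p = 0.185) passed. In fasted liver the log2 fold changes of Plin5, Ncam2, Mt1, Mt2 and Il1r1 were -2.01, -2.19, 2.15, 2.90 and 1.01, and their interaction terms did not pass (adjusted p 0.626 to 0.967). Other genes that passed every leave-one-out run were near 0 in fasted liver. Cbr4, C2, Frs2 and Cenpv, picked after their values were seen, had 0.004, -0.006, 0.014 and -0.06 there. Their interaction terms did not pass either (adjusted p 0.118 to 0.178). Of the 183 called genes, 150 had the same sign in fasted liver.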

How the data were processed

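RNA-seq of liver was deposited as gene counts and as FPKM values for 19 libraries. The authors deposited counts per gene symbol and FPKM (fragments per kilobase of transcript, scaled to library size). Per the submitters' processing notes, the tools were Subread, edgeR, Cuffdiff 2.2.1, HISAT2 2.0.2 and FastQC and the builds mm10 and GRCm38 (which of them made which file is not said). Among the counted genes, 27 have names that read as dates and were kept as they stand. Positions and the longest transcript of each gene were taken here from GENCODE's basic annotation of GRCm38. The authors' annotation, the strand setting and the handling of multi-mapping reads are not stated in any label or header used, so antisense and overlapping genes cannot be told apart. Counts were tested with edgeR 4.0.16 in R 4.3.3 (filterByExpr with a minimum count of 10, TMM, quasi-likelihood test, Benjamini-Hochberg adjustment over all genes tested). The fit held all 19 libraries in 4 groups, which share 1 estimate of the spread (biological coefficient of variation 19.3%). DESeq2 1.42.0 and limma 3.58.1 on log2(FPKM + 1), or + 0.1 (genes averaging 0.5 FPKM or more, or all genes) were alternatives. The other settings were RLE scaling, no filter and a stricter filter, only re-fed libraries, a replicate block, each re-fed library left out, the clock-shifted libraries left out, and each library's trend along transcript length taken out. Counting fasted controls 3 and 4 as 1 sample was added after seeing the data. Steps were tested on simulated data. The members, the gene lists and the tests were chosen with earlier results of these data known, including the clock-shifted libraries and the length trend. Genes were named by rule: the 15 largest rises and falls with a mean of at least 2 CPM, those that passed in all 10 leave-one-out runs without overlap, the called members of each list or otherwise up to 3 with the smallest p, and a fixed set; genes outside it are said to be so. Results of some genes that the rule or the interaction test names are not reported here.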

Additional observations from a re-analysis of the deposited data

Results flagged for a closer look

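A gap test for a single value far from the rest of its group (Dixon's ratio above its critical value for 5 samples) marked 10 of 136 gene-by-group sets (7.35%). The critical value is set to mark about 1 in 20 sets of normally distributed values. Here the values were CPM, the genes were chosen with these data known, and the sets share libraries. The share marked is therefore no measure of an excess over chance. Control ASO 5 was far above the other controls for 4 genes. Fos was at 136 CPM against 1.88 to 21.4 CPM in the other 4 controls, Egr1 at 109 CPM against 4.43 to 33.0 CPM in the other 4, Nr4a1 at 79.1 CPM against 8.26 to 17.2 CPM in the other 4, and Rnf125 at 83.6 CPM against 18.4 to 37.0 CPM in the other 4. Control ASO 3 was high for Lcn2, at 13 CPM against 5.90 to 7.6 CPM in the other 4. Among PLIN5 ASO libraries, number 2 was high for Rpl35a, at 131 CPM against 102 to 105 CPM in the other 4. Number 1 was high for Lpp, at 31.4 CPM against 23.5 to 25.2 CPM in the other 4, and low for Otc, at 509 CPM against 600.0 to 628 CPM in the other 4. Number 4 was low for Npm3, at 8.89 CPM against 12.9 to 14.1 CPM in the other 4, and number 5 was high for Saa1, at 277 CPM against 71.8 to 111 CPM in the other 4.

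The effect of PLIN5 ASO differed between re-fed and fasted liver by the interaction test for 3 genes, of which 2 are described. The difference of the log2 fold changes, re-fed minus fasted, was -1.19 for Rnf144b and 0.60 for Dpm3. Rnf144b passed in 5 of 21 alternative settings and Dpm3 in 6.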

How the results depend on the processing

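The 183 calls became 612 in DESeq2, 4 in the 10 re-fed libraries alone, 45 without the clock-shifted libraries and 44 with the length trend taken out, and 45 to 341 when 1 re-fed library was left out. A replicate block gave 290 calls, 167 of them among the 183. Whether the labels' shared numbers pair the libraries was not settled. Same-numbered ones correlated at -0.15 to 0.17, 3 of 5 above 0.1, and 2 of 5 correlated best with their own number. The 3 interaction calls became 95 in DESeq2, 1 with the block, and 0 to 3 when 1 re-fed library was left out. They became 4 without the clock-shifted libraries and were 3 in limma on FPKM with a pseudocount of 1 and no filter, with RLE scaling and with the stricter filter. They became 0 in edgeR without a filter, with the length trend taken out, with fasted controls 3 and 4 as 1 sample, and in limma on filtered FPKM with a pseudocount of 1 or 0.1; in edgeR 1991 genes had an unadjusted interaction p under 0.05. The causes were not tested. Plin5 passed in every setting run (-2.12 to -2.48 over left-out libraries), and the length trend kept its direction and stayed past its threshold in those run for it. Of 1840 values of the 84 called genes named by rule, 1322 kept direction and threshold, 518 kept direction but did not pass, and none reversed. The depth (24942147 counts in the shallowest re-fed library) limits genes near the count filter.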
